A study of Homo sapiens with 4 samples.

Results

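The ERK output and negative feedback genes are 10 genes whose transcripts follow the activity of the ERK kinases or whose proteins restrain the same pathway: *DUSP4*, *DUSP5*, *DUSP6*, *SPRY2*, *SPRY4*, *SPRED1*, *SPRED2*, *ETV4*, *ETV5* and *ERRFI1*. The rule names the genes and uses no measured value, although the genes were chosen with earlier results of these data known. They were compared between osimertinib-resistant PC9OR cells and the parental PC9 cells. All 10 were listed in every library, among 16813 genes listed in at least 1 library, and all 10 had enough counts to be tested. PC9 is a human lung adenocarcinoma line that depends on mutant EGFR, and osimertinib is an inhibitor of the mutant EGFR kinase. The labels give both lines the genotype WT, call PC9 the control and PC9OR osimertinib resistant, and describe culture in RPMI 1640 with fetal bovine serum for both. Each line had 2 biological replicates, so that 4 libraries of total RNA from bulk cells were available, prepared with a stranded kit. PC9OR stands for 1 resistant derivative, and whether it is a single clone, and whether osimertinib was in the medium when RNA was taken, are not given in the sources used here.

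When EGFR is active, it switches on RAS through adaptor proteins and the exchange factor SOS, and RAS then starts the RAF, MEK and ERK kinase cascade. ERK in turn raises the transcription of genes that switch the cascade off again, which makes these transcripts a commonly used readout of ERK activity in EGFR-mutant lung cancer cells. DUSP4 and DUSP5 are nuclear phosphatases and DUSP6 is a cytoplasmic phosphatase that remove phosphate from ERK. Sprouty proteins (SPRY2, SPRY4) act between receptor and RAF, SPRED proteins (SPRED1, SPRED2) bring the RAS inactivator NF1 to the membrane, ERRFI1 (also called MIG6) binds and inhibits the EGFR kinase itself, and ETV4 and ETV5 are ETS transcription factors of the PEA3 group.

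Of the 10 genes, 3 fell in PC9OR cells, namely *DUSP6*, *SPRY4* and *SPRED2*, by between 2.08-fold and 2.98-fold, and 0 rose. The other 7 did not pass the threshold, an adjusted p under 0.05 in the quasi-likelihood test of edgeR, with p-values adjusted by Benjamini-Hochberg over all genes tested. In the whole comparison 20.8% of the 13148 genes tested were called lower and 15.6% higher in PC9OR. Without adjustment, 6 of the 10 had a p under 0.05 and lay lower and 0 lay higher, against 26.7% and 23.9% of all genes tested. DESeq2's Wald test called 3 of the 10 lower and 0 higher, against 23.0% and 18.6% of the genes it tested. The median log2 fold change was -0.33 over the 10 genes and 0.01 over all genes tested. Both PC9OR libraries lay below both PC9 libraries for 7 of the 10 (38.2% of all genes tested), above them for *SPRY2* alone (39.6% of all genes tested), and the lines overlapped for *SPRED1* and *ERRFI1*.

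**Figure D1:**
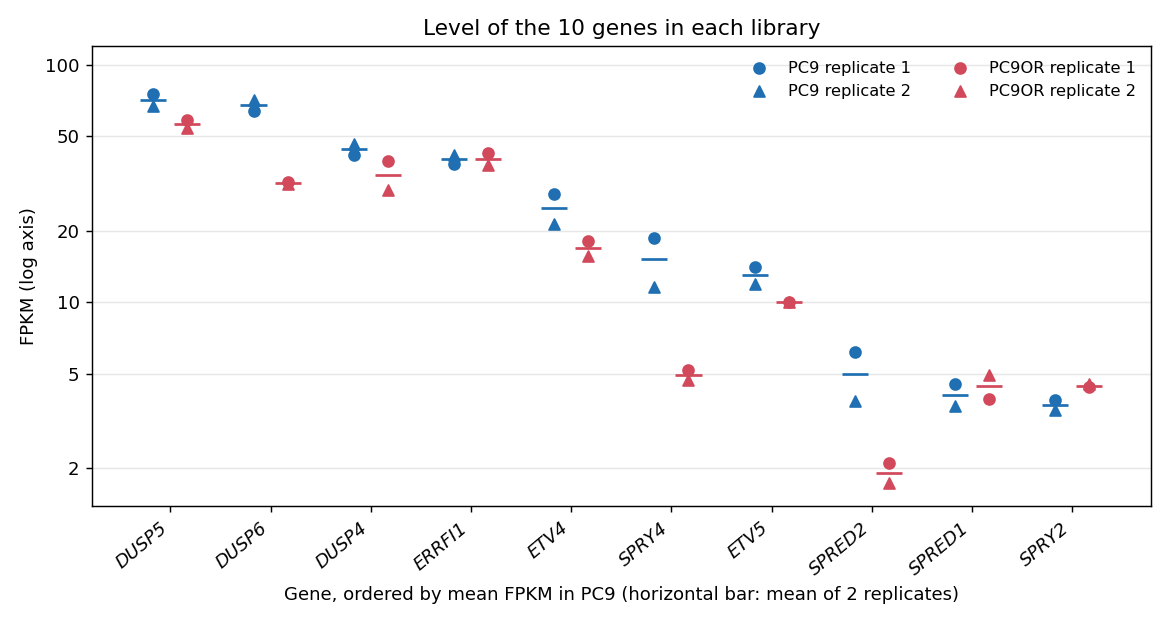
Level of each of the 10 genes in each library, as FPKM (fragment counts divided by the length of the transcript and the size of the library) on a log axis, with the mean of the 2 replicates of each line as a horizontal bar. Both PC9OR libraries lie below both PC9 libraries for 7 of the 10 genes, *DUSP6*, *SPRY4* and *SPRED2* among them, and above them for *SPRY2*. Over all genes tested, on normalized counts, 38.2% lay below and 39.6% above. *ERRFI1* was at 40.01 FPKM in PC9 and 40.1 in PC9OR on average.

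The difference between the lines varied with transcript length across all genes, which bears on each value given here. The median log2 fold change ran from 0.53 in the shortest of 10 length classes (median length 920 bases) to -0.58 in the longest (8047 bases). The rank correlation between length and log2 fold change was -0.34 across genes, and length also correlated with the difference between the 2 PC9 replicates (-0.38), but hardly with that between the PC9OR replicates (-0.0065). The coefficient of variation between replicates beyond counting noise was 0.241 in PC9 and 0.104 in PC9OR. Genes are not independent replicates, so these correlations are descriptions. A second fit therefore carried offsets per gene for transcript length and GC content (the length and GC offsets), under which 22.0% of all genes tested were called higher and 19.5% lower. With it 4 of the 10 genes were lower (*DUSP6*, *SPRY4*, *SPRED2* and *ETV4*) and 1 was higher (*SPRED1*), and their median log2 fold change was -0.08.

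*DUSP6* encodes the cytoplasmic phosphatase that is specific for ERK. Its level was 64.2 and 71.4 FPKM in the PC9 replicates and 32.1 and 31.6 FPKM in the PC9OR replicates. Both PC9OR libraries were low and almost equal, and the lines did not overlap. The mean was 67.8 FPKM ± 5.13 in PC9 and 31.9 ± 0.396 in PC9OR (SD, n = 2 each), a 2.08-fold decrease (log2 fold change -1.06, SE 0.115, 95% confidence interval -1.35 to -0.76, adjusted p = 0.00659 by edgeR). The decrease was 1.77-fold with the length and GC offsets (adjusted p = 0.0094), between -1.15 and -0.99 on the log2 scale when any 1 library was left out, and was called in all 16 fits that kept this threshold. It lay at percentile 13.6 of the log2 fold changes of all genes tested. The gene lies at chr12:89741012-89746278 on the minus strand (GRCh37).

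*SPRY4*, a Sprouty inhibitor of signalling from receptor to RAF, had the largest decrease of the 10. It was at 18.7 and 11.6 FPKM in the PC9 replicates and at 5.18 and 4.69 FPKM in the PC9OR replicates. Every PC9OR value was below every PC9 value, although the PC9 replicates differed from each other more than the PC9OR replicates did. The means were 15.2 FPKM ± 5.05 and 4.94 ± 0.347 (SD, n = 2 each), a 2.98-fold decrease (log2 fold change -1.58, SE 0.240, 95% confidence interval -2.19 to -0.96, adjusted p = 0.0115 by edgeR). With the offsets the decrease was 2.12-fold (adjusted p = 0.00433), and the log2 fold change was between -1.89 and -1.22 when any 1 library was left out. *SPRY4* is annotated at chr5:141689992-141706020, minus strand (GRCh37).

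*SPRED2*, which links NF1 to RAS, was the least abundant of the 3 genes that fell. It was at 6.17 and 3.83 FPKM in PC9 and at 2.11 and 1.73 FPKM in PC9OR. Here too the lines did not overlap, and PC9 replicate 1 was the highest library. The mean fell from 5.00 FPKM ± 1.66 to 1.92 ± 0.269 (SD, n = 2 each), which is 2.48-fold in the fit (log2 fold change -1.31, SE 0.256, 95% confidence interval -1.96 to -0.65, adjusted p = 0.0193 by edgeR). The decrease was 1.86-fold with the length and GC offsets (adjusted p = 0.0143). Without PC9OR replicate 2 the call was lost (log2 fold change -1.18, adjusted p = 0.0513). The gene spans chr2:65537985-65659771 on the minus strand (GRCh37).

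The promoter-proximal sequence of these 3 genes is shown because ETS factors, among them ETV4 and ETV5, bind a GGAA core and act on many ERK output genes. *ERRFI1* is shown beside them as a gene whose level did not move past the threshold. Each line gives the 250 bases before the RefSeq transcription start (assembly GRCh38.p14, minus strand of the chromosome, printed 5′ to 3′ in the direction of the gene), with GGAA or its reverse complement TTCC in capitals. The windows are chr12:89352502-89352751 for *DUSP6*, chr5:142324248-142324497 for *SPRY4*, chr2:65432600-65432849 for the first annotated start of *SPRED2* and chr1:8026310-8026559 for *ERRFI1*.
DUSP6: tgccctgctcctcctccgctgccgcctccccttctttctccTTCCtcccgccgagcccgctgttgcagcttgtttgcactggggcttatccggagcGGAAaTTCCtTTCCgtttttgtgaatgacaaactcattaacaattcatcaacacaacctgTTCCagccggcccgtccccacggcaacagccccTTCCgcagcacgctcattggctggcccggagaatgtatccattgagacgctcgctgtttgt
SPRY4: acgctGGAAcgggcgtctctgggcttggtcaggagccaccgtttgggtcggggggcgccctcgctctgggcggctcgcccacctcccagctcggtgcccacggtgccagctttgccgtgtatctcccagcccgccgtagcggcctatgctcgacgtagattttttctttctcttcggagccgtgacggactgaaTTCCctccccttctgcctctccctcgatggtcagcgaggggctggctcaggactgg
SPRED2: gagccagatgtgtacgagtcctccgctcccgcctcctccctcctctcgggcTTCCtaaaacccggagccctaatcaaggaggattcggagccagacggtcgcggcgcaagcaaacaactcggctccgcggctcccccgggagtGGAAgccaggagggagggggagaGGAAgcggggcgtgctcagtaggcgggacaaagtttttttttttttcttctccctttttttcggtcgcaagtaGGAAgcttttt
ERRFI1: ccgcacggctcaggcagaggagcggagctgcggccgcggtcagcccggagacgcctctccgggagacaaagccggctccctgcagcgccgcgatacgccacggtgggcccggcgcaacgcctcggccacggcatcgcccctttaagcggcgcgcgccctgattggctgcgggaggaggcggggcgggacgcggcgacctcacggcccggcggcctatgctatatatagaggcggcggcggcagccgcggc
On either strand the GGAA core occurred 6 times before *DUSP6*, 2 times before *SPRY4*, 4 times before *SPRED2* and 0 times before *ERRFI1*. It also occurred 3, 4 and 4 times before the 3 starts of *SPRY2*, 3 times before *SPRED1* and 5 times before the other start of *SPRED2*, so that the number of cores did not separate the genes that fell from the others. Over 35116 upstream windows of the same length in RefSeq, 92.7% held the core at least once, with a median of 3. None of the 4 windows printed held the longer ETS form CCGGAA (in 14.5% of all windows), the AP-1 form TGANTCA (6.57%), the CRE form TGACGTCA (1.65%) or the CIC forms TGAATGAA (1.40%) and TGAATGGA (0.832%), all searched on both strands, and the first start of *SPRY2* held CCGGAA once. CCGGAA contains GGAA, so these 2 overlap. A match is a run of letters and not a measured binding site. Of the 10 genes, 6 had an upstream sequence in the RefSeq table used, with 9 windows in all, and those without an entry were *DUSP4*, *DUSP5*, *ETV4* and *ETV5*.

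The other phosphatases of the group differed less between the lines. *DUSP5*, the nuclear phosphatase for ERK and the gene with the highest mean FPKM of the 10 in both lines, was at 75.1 and 67.2 FPKM in PC9 and at 58.7 and 54.4 FPKM in PC9OR. The lines did not overlap, but the difference was small (log2 fold change -0.30, SE 0.110, 95% confidence interval -0.58 to -0.02, adjusted p = 0.0857 by edgeR). The log2 fold change of *DUSP5* was between -0.38 and -0.24 when any 1 library was left out. *DUSP4*, which acts on ERK and on JNK in the nucleus, was at 41.8 and 46.3 FPKM in PC9 and at 39.2 and 29.7 FPKM in PC9OR. PC9OR replicate 1 was close to the PC9 libraries and replicate 2 was lower, and the test gave a log2 fold change of -0.33 (SE 0.163, 95% confidence interval -0.74 to 0.09, adjusted p = 0.168). For *DUSP4*, whose transcript is long (5660 bases), the estimate was 0.19 with the length and GC offsets (adjusted p = 0.499), so that its sign depended on that correction. *DUSP5* lies at chr10:112257665-112271291 on the plus strand and *DUSP4* at chr8:29190581-29208201 on the minus strand (GRCh37).

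The distance between the phosphatases within a line also differed between the lines. The FPKM ratio of *DUSP6* to *DUSP5* was 0.855 and 1.06 in the PC9 libraries and 0.547 and 0.580 in the PC9OR libraries. In PC9 the levels of *DUSP5* and *DUSP6* overlapped between replicates and both exceeded *DUSP4*. In PC9OR *DUSP5* stood alone at the top, and below it the replicates of *DUSP4* overlapped those of *DUSP6* and those of *ERRFI1*, while *ERRFI1* lay above *DUSP6* in both libraries.

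Sprouty and SPRED genes each split into a member that fell and a member that did not. *SPRY2*, the paralogue of *SPRY4*, was at 3.87 and 3.51 FPKM in PC9 and at 4.38 and 4.53 FPKM in PC9OR. It was the only gene of the 10 with both PC9OR libraries above both PC9 libraries, and its difference did not pass the threshold (log2 fold change 0.32, SE 0.164, 95% confidence interval -0.10 to 0.74, adjusted p = 0.173 by edgeR). The FPKM ratio of *SPRY4* to *SPRY2* was 4.84 and 3.31 in the PC9 libraries and 1.18 and 1.04 in the PC9OR libraries. In FPKM, which carries no correction for the length trend between the lines, the excess of *SPRY4* over *SPRY2* seen in PC9 was thus almost gone. With the length and GC offsets the log2 fold change was -1.08 for *SPRY4* (-1.58 without them) and 0.33 for *SPRY2*. *SPRY2* lies at chr13:80910111-80915261 on the minus strand (GRCh37).

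*SPRED1*, the paralogue of *SPRED2*, was at 4.52 and 3.66 FPKM in PC9 and at 3.93 and 4.95 FPKM in PC9OR. The lines overlapped, and the log2 fold change was 0.16 (SE 0.176, 95% confidence interval -0.29 to 0.61, adjusted p = 0.498 by edgeR). It was -0.03 without PC9OR replicate 2. *SPRED1* had the longest transcript of the 10 (7255 bases), and with the length and GC offsets it was called higher in PC9OR (log2 fold change 0.66, adjusted p = 0.0164). The FPKM ratio of *SPRED2* to *SPRED1* was 1.37 and 1.05 in PC9 and 0.537 and 0.350 in PC9OR, below 1 in both resistant libraries. *SPRED1* lies at chr15:38545037-38649450 on the plus strand (GRCh37).

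*ERRFI1*, which lies at chr1:8064464-8086369 on the minus strand (GRCh37), had the smallest difference of the 10 in the fit without offsets. It was at 38.3 and 41.7 FPKM in PC9 and at 42.3 and 37.9 FPKM in PC9OR, with overlapping libraries. The log2 fold change was 0.03 (SE 0.117, 95% confidence interval -0.27 to 0.34, adjusted p = 0.83 by edgeR), an interval that leaves out a decrease of the size fitted for *DUSP6*, *SPRY4* or *SPRED2*. With the length and GC offsets it was 0.25 (adjusted p = 0.176), larger in size than the values of *DUSP4*, *DUSP5* (-0.17) and *ETV5* in that fit.

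The output transcription factors lay lower in PC9OR without passing the threshold. *ETV4* was at 28.6 and 21.4 FPKM in PC9 and at 18.2 and 15.6 FPKM in PC9OR, with no overlap. Its log2 fold change was -0.47 (SE 0.169, 95% confidence interval -0.90 to -0.03, adjusted p = 0.0834 by edgeR), and it was called lower with the length and GC offsets (-0.44, adjusted p = 0.0367). With any 1 library left out the log2 fold change of *ETV4* was between -0.66 and -0.27. *ETV5* was at 14.1 and 11.9 FPKM in PC9 and at 10.1 and 10.0 FPKM in PC9OR. These libraries did not overlap either, and the log2 fold change was -0.33 (SE 0.123, 95% confidence interval -0.65 to -0.02, adjusted p = 0.0887), but it was 0.01 with the offsets (adjusted p = 0.905). With any 1 library left out the log2 fold change of *ETV5* was between -0.45 and -0.23. *ETV4* lies at chr17:41605212-41656988 and *ETV5* at chr3:185764103-185828107, both on the minus strand (GRCh37). Exons of *ETV4* overlap those of *DHX8* on the opposite strand and exons of *ETV5* overlap those of *DGKG* on the same strand, and how reads were divided between them is not given in the sources used here. Exons of *DUSP6* and of *ERRFI1* each overlap an annotated gene on the opposite strand that is named only by an Ensembl identifier. These identifiers could not be matched by name to the deposited genes.

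**Figure D2:**
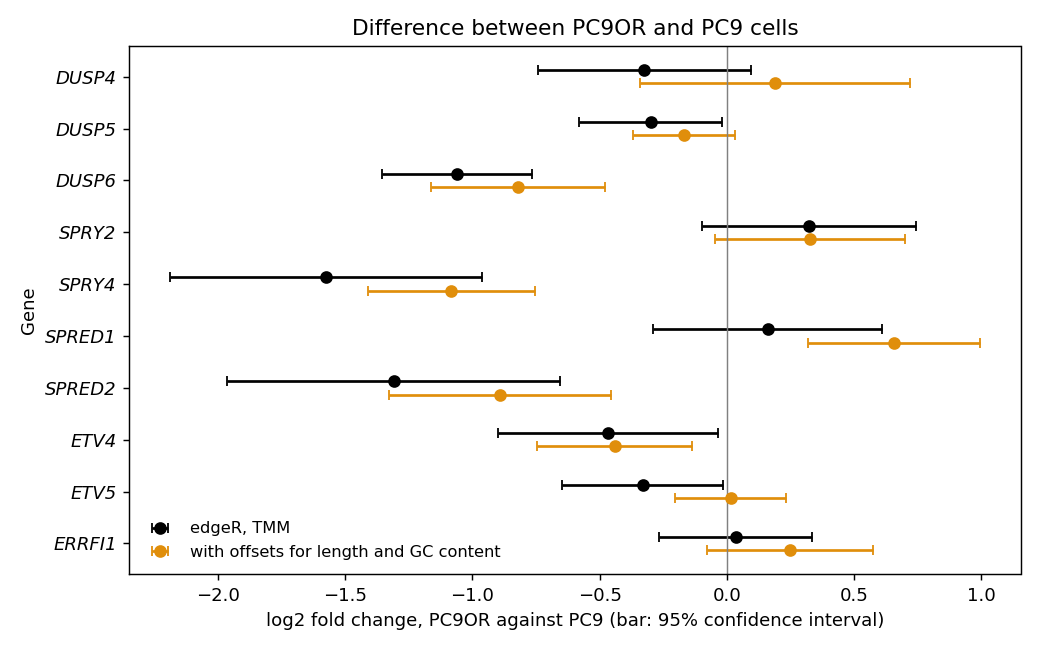
Log2 fold change of PC9OR against PC9 for each of the 10 genes with its 95% confidence interval, from the edgeR fit (black) and from the fit with length and GC offsets (orange). The intervals of *DUSP6*, *SPRY4* and *SPRED2* lie below 0 in both fits, and *SPRED1* lies above 0 with the offsets only.

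**Figure D3:**
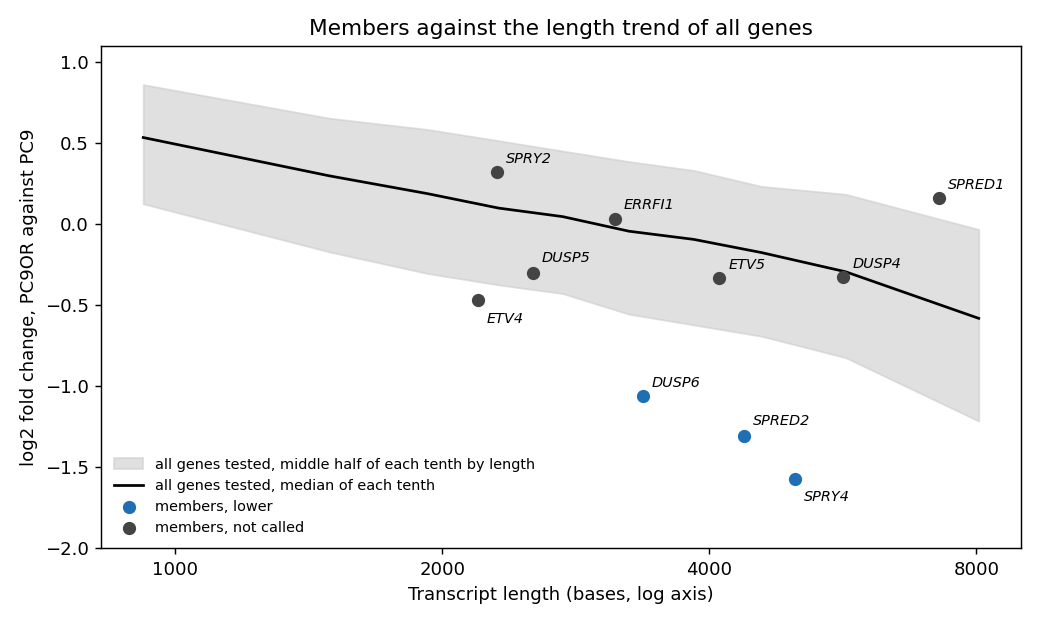
Log2 fold change of each of the 10 genes against its transcript length on a log axis, with the median (line) and the range between the quartiles (shading) of all genes tested in 10 classes of length. *DUSP6*, *SPRY4*, *SPRED2* and, slightly, *ETV4* lie under the shading at their length, *SPRED1* lies above it, and *DUSP4* and *ETV5* lie close to the line.

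The other genes of the pathway were described with 4 lists written beside the 10 genes, 69 genes in all, of which 67 were tested. Of these, 30 were lower (44.8%) and 5 higher (7.46%) in PC9OR, with a median log2 fold change of -0.59. Over all genes tested, 20.8% were lower and 15.6% higher. With the offsets 25 of the 67 were lower and 10 higher, with a median of -0.26, against 19.5% and 22.0% of all genes tested. Most of the genes that moved past the threshold lay lower in every list, as they did among the 10. These counts are descriptions, since the lists were not drawn at random. The lists and the 10 genes were chosen with earlier results of these data known, so their likeness is no independent support for a shared pattern.

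Among 14 other phosphatases and feedback inhibitors, of which 13 were tested, 7 were lower and 0 higher (median log2 fold change -1.02). Over all genes tested, 20.8% were lower and 15.6% higher. With the length and GC offsets 6 of the 13 were lower and 1 higher (median -0.63). Without adjustment, 8 of the 13 had a p under 0.05 and lay lower and 1 lay higher, against 26.7% and 23.9% of all genes tested. DESeq2's Wald test called 7 lower and 0 higher, against 23.0% and 18.6% of the genes it tested. *DUSP1*, a nuclear phosphatase of several MAP kinases, had a log2 fold change of -1.24 (adjusted p = 0.0122 by edgeR), and for *DUSP16*, which prefers JNK and p38, it was -1.65 (adjusted p = 0.00683). *DUSP7*, the closest relative of *DUSP6* in this list, had a log2 fold change of -1.28 (adjusted p = 0.0115), a call lost without PC9OR replicate 2 (-1.23, adjusted p = 0.0543). *CBL*, a ubiquitin ligase that marks EGFR for degradation, was also lower (log2 fold change -1.57, adjusted p = 0.00761, and -0.63 with the offsets). Another Sprouty gene, *SPRY1*, was at 8.40 and 8.12 FPKM in PC9 and at 6.69 and 7.68 FPKM in PC9OR (log2 fold change -0.18, adjusted p = 0.325). *SPRY3* was at 0.29 and 0.21 FPKM in PC9 and at 0.13 and 0.11 FPKM in PC9OR (log2 fold change -1.015, adjusted p = 0.066 by edgeR). Of the Sprouty genes named, only *SPRY4* passed the threshold. *SPRED3* was listed at 0.52 FPKM and 0 in PC9 and at 0 and 0.11 FPKM in PC9OR.

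Of 18 other ERK output genes, all tested, 8 were lower and 2 higher (median log2 fold change -0.69). Over all genes tested, 20.8% were lower and 15.6% higher. With the length and GC offsets 8 of the 18 were lower and 3 higher (median -0.47). *FOSL1*, an AP-1 subunit that accumulates under sustained ERK activity, was at 38.7 and 17.8 FPKM in PC9 and at 7.34 and 5.43 FPKM in PC9OR (log2 fold change -2.13, adjusted p = 0.0179 by edgeR), and the log2 fold change was -1.47 without PC9 replicate 1. *PHLDA1* fell from 41.8 and 38.3 FPKM to 14.7 and 13.3 FPKM (log2 fold change -1.48, adjusted p = 0.00434). The EGFR ligand gene *HBEGF* fell from 98.9 and 106.9 FPKM to 47.5 and 39.4 FPKM (adjusted p = 0.00683), and the cytokine gene *LIF* from 33.7 and 26.2 FPKM to 8.19 and 7.02 FPKM (adjusted p = 0.00479). In all of these, which were named because they were called lower, both PC9OR libraries lay below both PC9 libraries. The same held for 38.2% of all genes tested. The 2 that rose were *EPHA4*, an ephrin receptor gene, at 1.87 FPKM in each PC9 library and at 8.68 and 7.49 FPKM in PC9OR (log2 fold change 2.15, adjusted p = 0.00327), and *JUNB*, an AP-1 subunit gene (1.07, adjusted p = 0.015, and 0.81, adjusted p = 0.0664, without PC9OR replicate 1). *ETV1*, the remaining PEA3 factor beside *ETV4* and *ETV5*, had a log2 fold change of -0.86 (adjusted p = 0.0578).

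**Figure D4:**
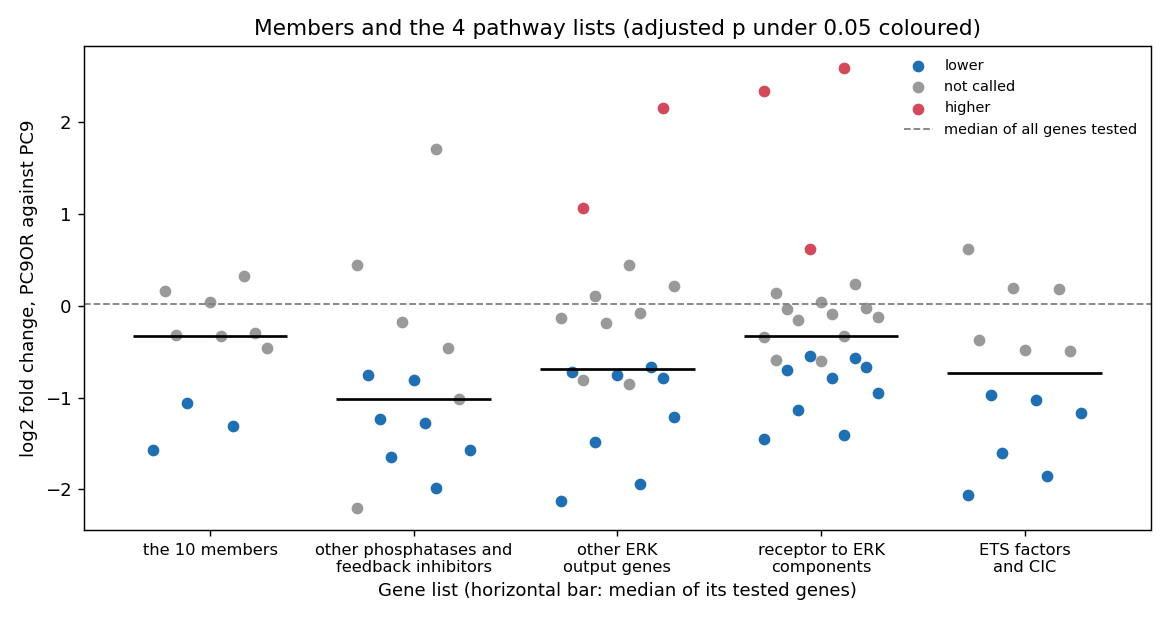
Log2 fold change of PC9OR against PC9 for the 10 genes and the tested genes of the 4 pathway lists, with the median of each list as a bar and the median of all genes tested as a dashed line. Genes with an adjusted p under 0.05 are coloured. In this fit without offsets the median is -0.33 for the 10 genes and -1.02 for the other phosphatases and feedback inhibitors.

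The components of the cascade that the 10 genes read out or restrain did not all move in the same direction. Among 25 components from receptor to ERK, of which 24 were tested, 9 were lower and 3 higher (median log2 fold change -0.33). Over all genes tested, 20.8% were lower and 15.6% higher. With the length and GC offsets 8 of the 24 were lower and 6 higher (median -0.23), against 19.5% and 22.0% of all genes tested. *EGFR* was at 153.4 and 96.8 FPKM in PC9 and at 40.9 and 37.5 FPKM in PC9OR (log2 fold change -1.46, adjusted p = 0.0132 by edgeR, and -0.88 with the length and GC offsets). *NF1*, the partner of the SPRED proteins, fell from 22.8 and 17.01 FPKM to 7.27 and 7.65 FPKM (log2 fold change -1.41, adjusted p = 0.00728, and -0.70 with the offsets). *CRKL*, an adaptor gene at chr22:21271695-21308035 (GRCh37), rose from 18.6 and 17.5 FPKM to 107.1 and 104.1 FPKM (log2 fold change 2.59, adjusted p = 0.0022). *MAPK3*, which encodes ERK1, was at 8.57 and 7.07 FPKM in PC9 and at 12.8 and 10.7 FPKM in PC9OR (log2 fold change 0.62, adjusted p = 0.0364, but 0.272 without PC9OR replicate 1, 0.128 without replicate 2 and 0.0602 with the offset for length alone).

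**Figure D5:**
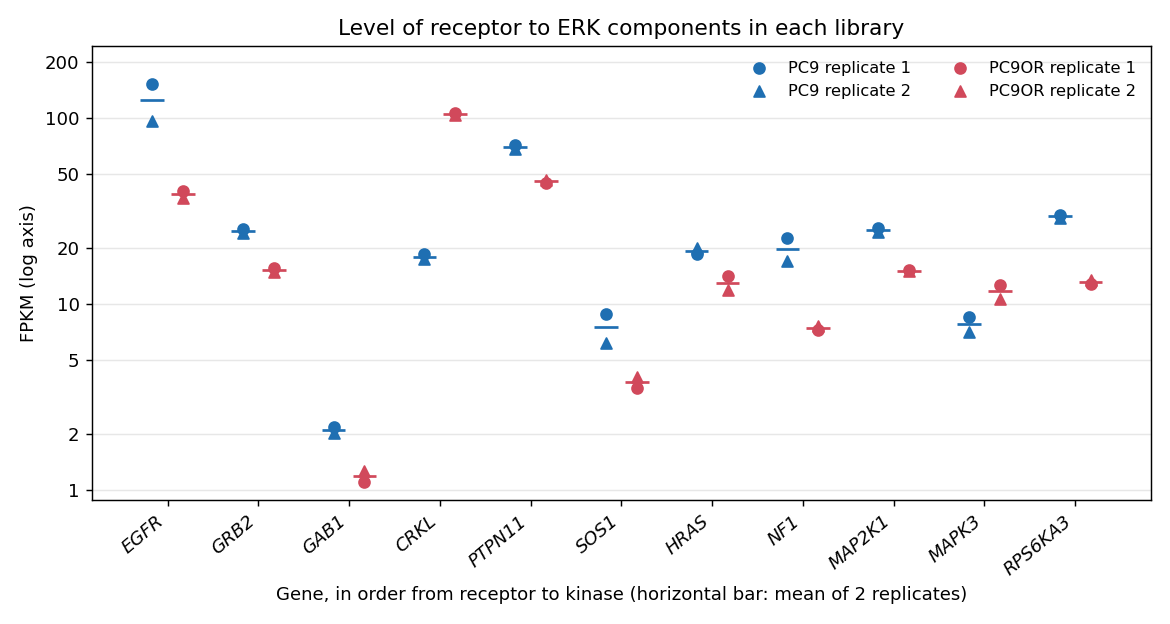
FPKM on a log axis in each library for 11 components from receptor to ERK with an adjusted p under 0.05, ordered from receptor to kinase, with the mean of the 2 replicates as a bar. *CRKL* is at 107.1 and 104.1 FPKM in the PC9OR libraries and at 18.6 and 17.5 FPKM in the PC9 libraries, while *EGFR* is lower in PC9OR.

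Among 12 ETS factors and CIC with its partners, all tested, 6 were lower and 0 higher (median log2 fold change -0.74, and 3 lower with the offsets, median -0.24). Over all genes tested, 20.8% were lower and 15.6% higher. Without adjustment, 9 of the 12 had a p under 0.05 and lay lower and 0 lay higher, against 26.7% and 23.9% of all genes tested. DESeq2's Wald test called 7 lower and 0 higher, against 23.0% and 18.6% of the genes it tested. *CIC*, a repressor of *ETV4*, *ETV5* and other ERK output genes that ERK inactivates, was at 6.63 and 2.73 FPKM in PC9 and at 1.04 and 1.01 FPKM in PC9OR (log2 fold change -2.06, adjusted p = 0.0228 by edgeR). Its log2 fold change was -1.31 without PC9 replicate 1, the library with the highest value, and -1.40 by limma on log2(FPKM + 1). *ELK3* fell from 21.0 and 18.5 FPKM to 5.10 and 5.34 FPKM (log2 fold change -1.86, adjusted p = 0.00399) and *ETS1* from 17.8 and 16.6 FPKM to 5.51 and 5.48 FPKM (-1.61, adjusted p = 0.0038), both ETS factors that ERK phosphorylates. *ERF*, an ETS repressor that ERK exports from the nucleus, had a log2 fold change of 0.19 (adjusted p = 0.335). In the fit without offsets *ETV4* and *ETV5*, neither past the threshold, were thus lower by less than *ELK3* and *ETS1* were. With the length and GC offsets *ETV5* was not lower (log2 fold change 0.01). The difference between these genes was not tested.

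The cell type markers were those of epithelial cells in every library, with all 6 epithelial markers listed and a summed level of 2576 and 2987 FPKM in PC9 and 5720 and 5512 FPKM in PC9OR. The 4 keratin genes made this difference, whereas *CDH1* was at 69.5 and 49.5 FPKM in PC9 and at 22.02 and 20.1 FPKM in PC9OR, and *EPCAM* was between 139.0 and 147.8 FPKM in every library. Fibroblast markers summed to between 0.14 and 0.19 FPKM with 5 of 5 listed, and immune markers to 6.97 and 5.55 FPKM in PC9 and 2.90 and 2.74 FPKM in PC9OR with 3 of 5 listed and *CD3E* at 0 throughout. Endothelial markers summed to 6.47 and 4.10 FPKM in PC9 and 0.86 and 0.88 FPKM in PC9OR with 3 of 4 listed and *KDR* at 0. The immune and endothelial sums moved with the 3 genes that fell, and their part in those results was not tested. In bulk RNA, fewer cells of a type and less RNA per cell cannot be told apart. The libraries held between 23201307 and 32203998 expected counts, so 3 counts corresponded to between 0.0932 and 0.129 CPM (counts scaled to a common library size), and the least abundant of the 10 genes lay far above that. The p-values measure the spread between 2 replicates of 1 line each.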

How the data were processed

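RNA sequencing libraries of PC9 and PC9OR cells, 2 biological replicates of each, were grouped by their labels. For every gene with a value above 0 in a library, the authors deposited an expected count (an estimated number of reads, not normalized), an FPKM value and a transcript length weighted by isoform use. The submitters' processing notes name Bowtie2 2.2.5, RSEM 1.2.12 and GRCh37, the paper's methods name SOAP for filtering reads and DEGseq for testing, and the strand setting of counting is not given in the sources used here. A gene not listed in a library was taken as 0.

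Expected counts were rounded, and edgeR 4.0.16 under R 4.3.3 was used for the test (TMM, filterByExpr, glmQLFit, glmQLFTest), which left 13148 genes, and p-values were adjusted by Benjamini-Hochberg over all of them. A gene was called at an adjusted p under 0.05. Library sums were between 23201307 and 32203998 expected counts, and counting floors of 3 counts cover counting error only. Symbols were found for 99.55% of genes in the RefSeq table, positions came from GENCODE lifted to GRCh37, and GC content was known for 97.6% of genes and for all 10 members. Alternatives were DESeq2 1.42.0 (Wald test or size factors), library totals, limma 3.58.1 on log2(FPKM + 1) and log2(FPKM + 0.1), no filter or at least 10 counts in every library, smooth offsets for length and for length with GC content (mgcv 1.9.3), the replicate number as a block, a fold threshold of 2 at an adjusted p under 0.05 or 0.001, and the omission of single libraries. The fit was also run on simulated data with the same spread in both lines and no trend with length. These data differ from that setting, so the simulation cannot show how the fit behaves on them.

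The 10 genes, the 4 pathway lists and the marker lists were chosen with earlier results of these data known. The text names the 10 genes, some list genes with an adjusted p under 0.05, and some relatives or direct partners of the 10 whatever their p. *DHX8* and *DGKG*, which overlap members, were the only other genes named beside the markers. Values of many other list genes, among them genes with an adjusted p under 0.05, are left out of the text.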

Additional observations from a re-analysis of the deposited data

How the results depend on the processing

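Of the values of the log2 fold changes of the 10 genes under other settings, 130 kept direction and call, 11 brought a gene past the threshold, 1 lost a call (*SPRED2* without PC9OR replicate 2) and 8 changed sign without a call (*DUSP4*, *ETV5*, *SPRED1* and *ERRFI1*). The 10 genes gave 3 lower under DESeq2's Wald test, size factors, library totals, limma and both filters. They gave 4 lower with each of the offsets, and 1 higher with the offsets for length, for length with GC content, and for both with the replicate block. Leaving out each library in turn gave 2 to 6 of the 10 lower and 0 higher, with 2 without PC9OR replicate 2 and 6 without PC9 replicate 2. A line left with a lone library was assumed to vary like the other line. The pathway lists gave 30 lower and 5 higher, and 14 to 42 lower and 3 to 10 higher with a library left out. All genes tested gave 1232 to 3978 lower and 540 to 3984 higher in the same way. With offsets for both, 10 pathway genes were higher, and 8 when the replicate block was added.

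With a 2-fold change required as well, 17 pathway genes were lower, and over all genes 1523 were lower and 806 higher. At an adjusted p under 0.001 with a 2-fold change the main edgeR fit called 0 genes in either direction, in the 10, in the lists and over all genes. In that fit 3 of the 10, and 1718 lower and 967 higher genes of all tested, had an unadjusted p under 0.05 with that fold. With the replicate block edgeR called 3 of the 10 lower at the stricter threshold, and 880 lower and 304 higher genes of all tested. With the length and GC offsets it called 0 of the 10, and 45 lower and 43 higher genes of all tested. DESeq2's Wald test called 3 of the 10 lower at that threshold, and 1238 lower and 497 higher genes of all tested.

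Samples with the same replicate number deviated together with a correlation of only 0.0522 across genes, and nothing in the labels pairs them. With the replicate number as a block, 4 of the 10 were lower (*ETV4* added, adjusted p = 0.038) and 0 higher, 35 pathway genes were lower and 5 higher, and over all genes 2946 were lower and 2593 higher. *IL17RD*, called lower with a log2 fold change of -0.75, had 0.0516 with offsets for length and GC and 0.0588 with the block added to them, and the cause was not tested. Among the pathway genes called, 55 values lost their call, 34 of them when a PC9OR library was left out. At 2 replicates a line, changes as small as those fitted for *DUSP5* and *ETV5* lay at the edge of what could be called.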

Other observations

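The deposited transcript lengths, weighted by isoform use, were the same in every library for *DUSP5*, *SPRED1*, *ETV5* and *ERRFI1* and varied for the other 6 genes. For *ETV4* the weighted length was 2132 and 2156 bases in the PC9 replicates and 2247 and 2231 bases in the PC9OR replicates. For *SPRED2* it was 4297 and 4351 bases in PC9 and 4442 and 4406 bases in PC9OR. Both genes therefore had longer weighted transcripts in both PC9OR libraries than in either PC9 library, as did *SPRY4* by less (4981 and 4986 bases in PC9, 5010 and 4994 in PC9OR). The weighted length of *SPRY2* varied between 2267 and 2338 bases with the lines overlapping. These genes were picked after their values were seen, and the difference was not tested.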
